A study of Mus musculus with 18 samples.

Results

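The response of normal mouse CD4+ T cells to activation was measured on 3 arrays of stimulated wild-type cells and 3 arrays of resting wild-type cells, out of 18 arrays in the series. The 6 arrays were chosen by their titles, and the genes were those measured by a single-gene probe set that reached log2 4 on at least 3 of the 18 arrays. That rule kept 10691 of 22690 probe sets and 6873 of 12393 genes, each gene being read from its brightest probe set. Stimulated cells had spent 12 h in culture with anti-CD3 and anti-CD28 antibodies (10 µg) and received no inhibitor. Resting cells were taken ex vivo, with no culture. Both groups came from wild-type mice aged 6 to 8 weeks, and CD4+ cells had been purified by negative selection with a stated purity above 95%. The series also holds stimulated and resting cells of mice lacking ERRα, a nuclear receptor encoded by Esrra, and stimulated wild-type cells with the ERRα inhibitor XCT790 or compound A. These other arrays entered the fit that estimates the spread. No cultured, unstimulated group was used here, so the comparison joins activation with the time in culture.

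A resting CD4+ T cell is a small cell that divides rarely and recirculates between blood, spleen and lymph nodes under the guidance of chemokine and sphingosine phosphate receptors. Signals through the T cell receptor, which binds antigen with the CD3 chains, and through the costimulatory receptor CD28 raise calcium and activate kinases that bring NFAT, AP-1 and NF-kappaB factors to their target genes. The cell then secretes interleukin-2, enlarges by building ribosomes, proteins, nucleotides and membranes, and only afterwards copies its DNA and divides.

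All values are GCRMA log2 signals, a microarray scale on which a step of 1 is a 2-fold change, and every array held the same set of sorted values, so each change is measured against the remaining genes. The groups were compared with limma, fitted over all 18 arrays, and a gene passed with a Benjamini-Hochberg adjusted p under 0.05. The submitters describe 3 independent biological replicates per group, and their number limits the precision. Correlations between arrays of one group ran from 0.987 to 0.997, against 0.831 to 0.848 between the groups. Where all 3 arrays of the lower group were under log2 4, a fold is given as "at least", computed against log2 4. In a bulk sample, fewer cells of a type and less RNA per cell cannot be told apart.

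Receptor chains of the labelled cell type were bright in both groups, and the resting preparations also held transcripts of other blood cells. The 9 CD4 T cell markers averaged 11.24 to 11.42 in stimulated arrays and 12.03 to 12.14 in resting arrays, and 6 of the 9 fell while 0 rose. The lineage factor Zbtb7b was the dimmest of them, and read 6.76, 6.32 and 6.48 in stimulated cells, against 9.07, 9.48 and 9.30 in resting cells. Cd3e, a chain of the receptor complex, read 12.21, 12.20 and 12.09 in stimulated cells, against 12.98, 12.96 and 12.99 in resting cells. Cd8a, which marks killer T cells, read 2.25, 2.24 and 2.25 in stimulated cells, against 2.25, 2.24 and 2.24 in resting cells, at the bottom of the scale, while Cd8b1 read 6.66, 7.28 and 7.32 in stimulated cells, against 6.55, 7.47 and 7.10 in resting cells. Of the 12 macrophage markers tested, 12 fell, and the mean over all 15 on the array was 2.49 to 2.65 in stimulated arrays, against 6.93 to 7.80 in resting arrays. B cell markers fell in 6 of 7, with list means of 4.54 to 4.74 in stimulated arrays and 6.27 to 7.45 in resting arrays. Erythroid markers fell in 5 of 7, with means of 2.34 to 2.50 in stimulated arrays and 3.99 to 6.02 in resting arrays. Neutrophil markers fell in 3 of 8, with means of 2.21 to 2.50 in stimulated arrays and 3.71 to 5.22 in resting arrays. Over all genes tested 38.4% fell, a share that the neutrophil count does not exceed. NK cell markers rose in 1 and fell in 3 of 6, with means of 4.91 to 5.12 in stimulated arrays and 5.77 to 6.17 in resting arrays. Dendritic cell markers rose in 3 and fell in 1 of 4, with means of 4.28 to 4.46 in stimulated arrays and 4.06 to 4.29 in resting arrays. Of the resting arrays, number 1 carried the highest erythroid, neutrophil and macrophage means, and number 2 the highest B cell mean. Among defining markers, Csf1r, C1qa and Cd68 of macrophages lay under log2 4 on all 3 stimulated arrays. So did 13 of the 15 macrophage, 6 of the 10 B cell, 9 of the 10 neutrophil and all 9 erythroid markers on the array. Such a marker, where tested, passed the filter only through other arrays. The filter thus favoured falls, and these counts of falls carry no weight of their own.

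**Figure D1:**
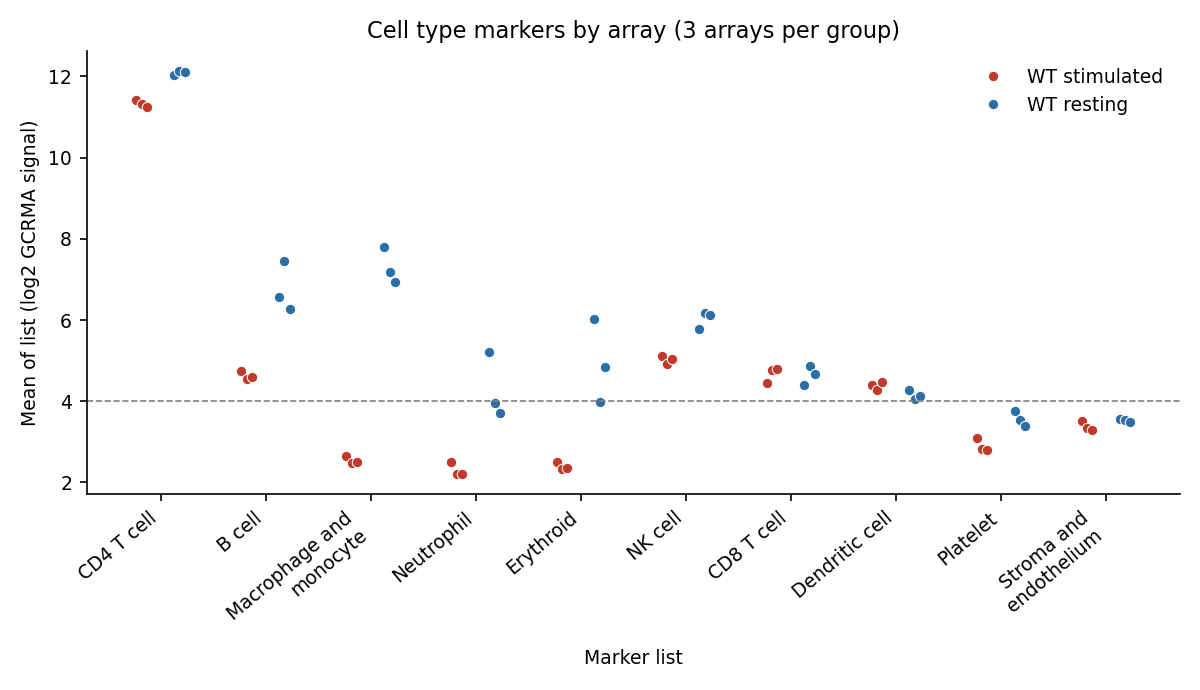
Mean log2 signal of each marker list on each of the 6 arrays (vertical axis, log2 GCRMA; 1 point per array, stimulated left of resting in each list; the dashed line marks log2 4). CD4 T cell markers lie between 11.24 and 12.14 on all arrays, and macrophage markers between 2.49 and 2.65 in stimulated arrays, against 6.93 to 7.80 in resting arrays.

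Most of the measured genes moved. Of 6873 genes tested, 5180 passed (75.4%): 2542 rose (37.0%) and 2638 fell (38.4%), and these shares are the background for each gene list that follows. The median fold of the genes that rose was 1.84, and that of the genes that fell was 1.94. Rises of at least 2-fold were found in 1079 genes (15.7%) and falls of that size in 1257 (18.3%). The classes of largest change were uneven: 40 genes rose and 95 fell by at least 16-fold, and 49 rose and 137 fell by 8-fold to 16-fold. In 5721 genes (83.2%) the 2 groups did not overlap, and 5138 of these (74.8% of all) also passed. The first principal component of the 6 arrays, which separated the groups, held 94.5% of the variance.

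**Figure D2:**
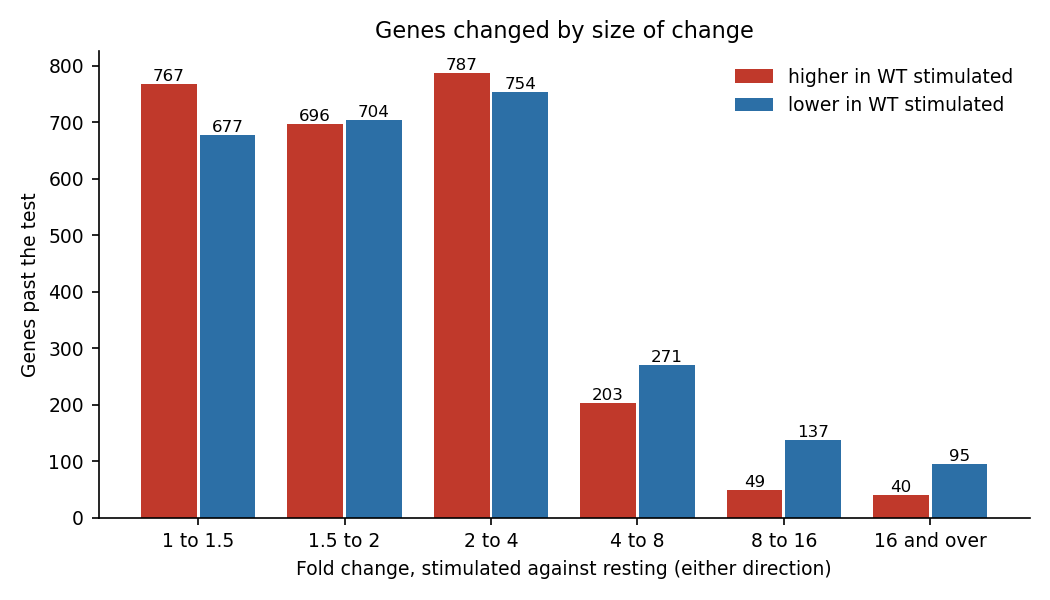
Number of genes past the test (vertical axis) in each class of fold change (horizontal axis), with rises in stimulated cells left of falls. In each class from 4-fold up the falls outnumber the rises, and 40 rises and 95 falls reach 16-fold.

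At the ends of the scale, 31 genes (0.451%) read under log2 4 on all resting arrays and at least log2 6 on all stimulated arrays. Thyroglobulin (Tg), known as the thyroid hormone precursor, rose at least 64.2-fold. Pros1, the anticoagulant protein S, read 8.68, 8.87 and 8.99 in stimulated cells, against 2.39, 2.56 and 2.42 in resting cells. The checkpoint receptor Lag3 read 9.35, 9.37 and 9.24 in stimulated cells, against 3.15, 3.01 and 2.85 in resting cells. The 31 also include the costimulatory receptor Cd40 (at least 11.8-fold), the interleukin-15 receptor chain Il15ra (at least 11.7-fold) and the checkpoint kinase Chek1 (at least 5.98-fold). In the other direction, 69 genes (1.00%) read at least log2 6 on all resting arrays and under log2 4 on all stimulated arrays. By resting level they are led by the macrophage gene Csf1r (at least 135-fold), the erythroid carbonic anhydrase Car1 (at least 109-fold) and the macrophage genes Vcam1 (at least 77.4-fold) and Slc40a1 (at least 58.2-fold), which move with the macrophage and erythroid means above; the part of those cells in each fall was not tested. Others are no marker of such cells in the lists used: the T cell surface receptor Cd7 fell at least 23.4-fold, the AMP deaminase Ampd3 at least 21.6-fold and the phosphodiesterase Pde2a at least 25.5-fold.

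For many genes the measured difference was small. In 1644 genes (23.9%) the 95% interval of the difference lay within a change of 1.5-fold either way, with all 6 arrays at or above log2 6. The ribosomal protein Rps3a1 read 15.05, 15.05 and 15.11 in stimulated cells, against 15.08, 15.05 and 15.08 in resting cells. Beta-actin, encoded by Actb, differed by 0.02, with an adjusted p of 0.658. Both lie near the top of the scale, whose highest value was 15.37, and a change there may be understated. Of the 1644 genes, 46 averaged within 1 log2 unit of that value over the 6 arrays. These bounds are again relative to the rest of the array.

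The genes that make the antigen receptor signal were mostly lower, whereas those that answer it outside the cell were mostly higher. In the T cell receptor complex and its proximal signalling, 3 of 32 members rose and 21 fell, with a median difference of -0.61. The receptor chains Cd3g (2.11-fold) and Cd3d (1.51-fold) and the coreceptor Cd4 (2.59-fold) were lower, but the other probe set of Cd4 differed by -0.05. Larger falls were those of the Tec family kinases Tec (11.4-fold) and Txk (9.64-fold), the adaptor Sla2 (at least 7.02-fold) and Pag1 (6.84-fold), which holds the inhibitory kinase Csk at the membrane. The 3 members that rose were the adaptors Sh2d2a (3.41-fold) and Sla (1.64-fold) and the kinase Zap70, which reads the phosphorylated CD3 chains (1.47-fold). Zap70 read 11.52, 11.42 and 11.31 in stimulated cells, against 10.93, 10.77 and 10.87 in resting cells. All stimulated arrays lay above all resting arrays. The receptor Cd28 itself did not pass, at a difference of 0.33 and an adjusted p of 0.0972.

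Costimulatory receptors and ligands of the TNF superfamily rose in 14 of 24 genes and fell in 6, 12 of them rising at least 2-fold. Tnfrsf9 (4-1BB) read 11.50, 10.91 and 11.07 in stimulated cells, against 7.76, 7.55 and 7.26 in resting cells. Its ligand Tnfsf9 rose 2.97-fold. The receptor Tnfrsf4 (OX40) rose 9.65-fold and its ligand Tnfsf4 4.39-fold, so both partners of each of these pairs were higher in the same preparation. The falls were those of the receptors Tnfrsf1a (3.73-fold), Tnfrsf25 (1.80-fold) and Cd27 (1.63-fold), the ligands Ltb (2.24-fold) and Tnfsf14 (1.92-fold), and Slamf6 (4.75-fold). Of 9 inhibitory checkpoint genes tested, 6 rose, among them Pdcd1 (PD-1, 3.78-fold) with its ligands Cd274 (3.90-fold) and Pdcd1lg2 (7.20-fold).

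Cytokines rose in 15 of 22 and fell in 4. Il2, the growth factor of T cells, read 11.13, 11.35 and 11.27 in stimulated cells, against 3.96, 4.74 and 4.68 in resting cells. It was 111-fold higher (log2 difference 6.79 ± 0.28, SE; limma adjusted p = 4.44e-11). Cytokines known from several helper lineages rose: Ifng of type 1 cells (14.2-fold), Il4 (8.35-fold) and Il13 (at least 2.75-fold) of type 2 cells, Il17a (at least 2.58-fold) of Th17 cells and Il21 (at least 3.19-fold). Il4 read 7.29, 6.58 and 7.66 in stimulated cells, against 3.94, 4.40 and 4.0 in resting cells. Every stimulated array lay above every resting array for Il2 and Il4. The members that fell were Il18 (at least 2.88-fold), Il16 (4.23-fold), Ltb and Tnfsf14. Tnf and the regulatory cytokine Tgfb1 did not pass, at differences of 0.26 and -0.12. Chemokine ligands rose in 8 of 11. Ccl3, an attractant of leukocytes, read 10.21, 9.06 and 9.66 in stimulated cells, against 4.18, 4.65 and 4.07 in resting cells. Ccl5, made by memory and killer T cells, was the one ligand that fell, and read 7.74, 6.56 and 6.95 in stimulated cells, against 12.39, 12.44 and 12.13 in resting cells. Xcl1, which attracts dendritic cells, rose 4.23-fold.

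The Il2 promoter is printed because it is the classical target of NFAT with AP-1 in T cells. The NFAT letters GGAAA, on either strand, are in capitals (RefSeq, GRCm38.p6, 250 bases before to 50 after the start).
Il2 (chr3:37125905-37126204, minus strand): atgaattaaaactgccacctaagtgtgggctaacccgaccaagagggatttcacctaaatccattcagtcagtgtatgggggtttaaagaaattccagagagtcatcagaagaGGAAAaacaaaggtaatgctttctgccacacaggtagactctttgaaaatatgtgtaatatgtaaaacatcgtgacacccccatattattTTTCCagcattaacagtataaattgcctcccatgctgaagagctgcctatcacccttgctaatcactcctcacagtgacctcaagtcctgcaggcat
GGAAA is short and stood in 61.3% of all windows and in 21 of 23 (91.3%) windows of the cytokine list. The AP-1 letters TGANTCA stood in 5 of 23 (21.7%) cytokine windows, against 7.81% of all windows, and not in the Il2 window as searched.

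The receptors that listen to such signals were mostly lower. Chemokine and egress receptors rose in 2 and fell in 9 of 11, each fall being at least 2-fold. Cxcr4, which retains cells in the bone marrow, read 7.40, 7.15 and 6.97 in stimulated cells, against 11.58, 11.65 and 11.62 in resting cells. S1pr1, the receptor that lets T cells leave lymph nodes, read 6.71, 7.07 and 6.92 in stimulated cells, against 9.93, 10.10 and 10.50 in resting cells. Cxcr3, which guides T cells to inflamed tissue, fell 15.4-fold, and Ccr9, a gut homing receptor, at least 19.2-fold. The 2 rises were those of Ccr8 (at least 2.60-fold) and the lymph node homing receptor Ccr7 (2.23-fold). Adhesion molecules followed, with 15 of 22 lower, including the integrin chains Itga4 (at least 4.32-fold) and Itgb7 (10.9-fold), which pair in gut homing. Icam1, which binds the integrin LFA-1, rose 2.96-fold, and the LFA-1 chain Itgal 1.28-fold. Among cytokine receptors, 4 of 24 rose and 12 fell. Il2ra, the chain that gives the interleukin-2 receptor its high affinity, read 10.68, 10.87 and 10.89 in stimulated cells, against 7.20, 7.12 and 6.77 in resting cells. Il7r, the receptor for the survival cytokine interleukin-7, read 8.64, 8.88 and 8.92 in stimulated cells, against 13.39, 13.29 and 13.40 in resting cells. The 2 differences thus ran in opposite directions. The interleukin-12 receptor chain Il12rb1 rose 12.9-fold, whereas Il18r1 fell 22.7-fold, Il6ra 7.10-fold and Tgfbr2 4.97-fold. The shared chain Il2rb did not pass, at 0.06.

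Transcription factor families held both rises and falls. Of 17 AP-1, CREB and small Maf factors, 8 rose (47.1%) and 7 fell (41.2%), against 37.0% and 38.4% over all genes, so the list counts alone set it little apart. Fos, the classical early AP-1 subunit, read 8.36, 7.98 and 7.98 in stimulated cells, against 13.76, 14.06 and 14.04 in resting cells. Its relative Fosl1 rose at least 3.90-fold, while Fosb fell at least 42.5-fold, Jun 7.35-fold and Junb 7.07-fold. Crem, a cyclic AMP response factor, read 9.83, 9.54 and 9.74 in stimulated cells, against 4.63, 5.52 and 5.31 in resting cells. The stress factor Atf3 rose at least 27.4-fold and the AP-1 partner Batf 1.68-fold. Resting arrays therefore held the higher Fos, Fosb, Jun and Junb signals, and stimulated arrays the higher Fosl1, Batf, Atf3 and Crem signals.

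Other early response genes showed the same mixture, with 6 of 23 higher and 13 lower. Egr2 rose 6.12-fold, Nr4a1 2.54-fold, Nr4a2 at least 9.31-fold and Myc 4.77-fold, whereas Egr1 did not pass, at -0.28. Lower members included the RNA-decay factors Zfp36 (7.76-fold) and Zfp36l2 (7.75-fold), the phosphatase subunit Ppp1r15a (8.16-fold) and the antiproliferative gene Btg2 (6.0-fold). Myc, which drives cell growth, read 12.20, 11.99 and 11.99 in stimulated cells, against 9.88, 9.79 and 9.75 in resting cells. In the network around it, 6 of 13 members rose and 7 fell: its helicase cofactors Ruvbl1 (4.22-fold) and Ruvbl2 (3.77-fold) rose, and its antagonists Mxd4 (12.6-fold), Mxi1 (2.09-fold) and Mnt (1.54-fold) fell.

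**Figure D3:**
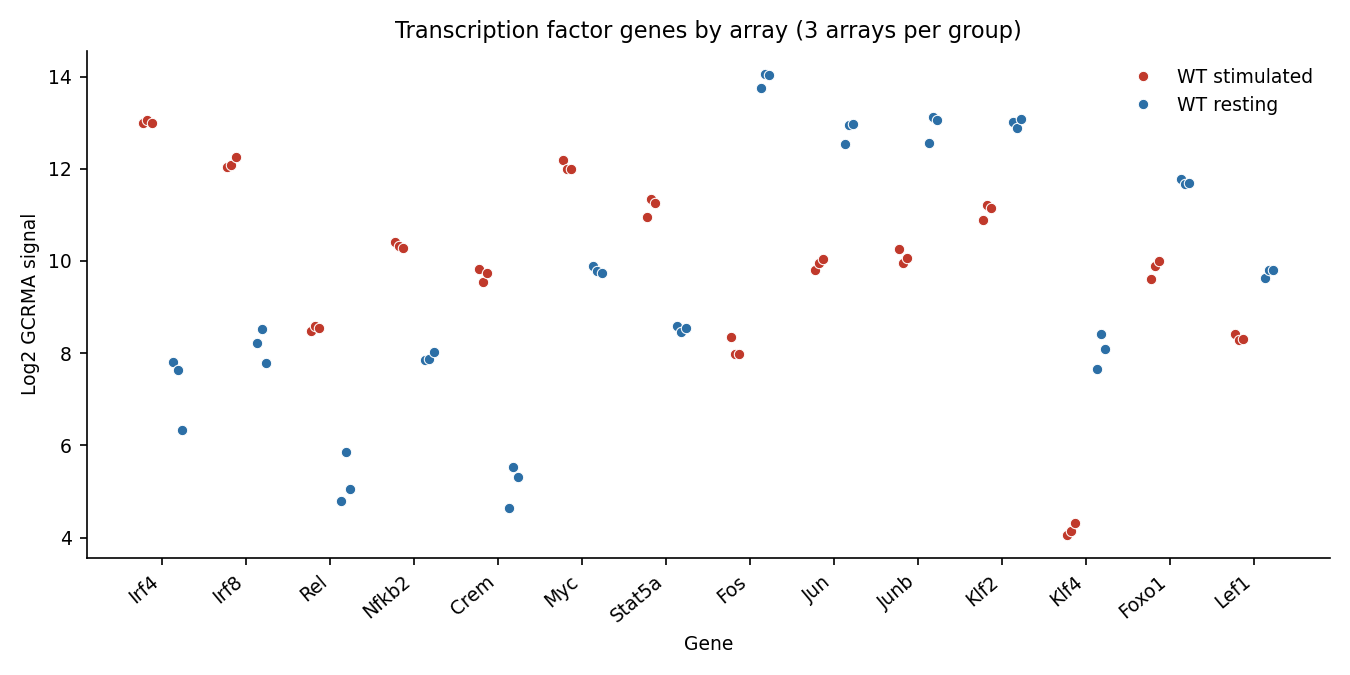
Log2 GCRMA signal (vertical axis) of 14 transcription factor genes on each array, with stimulated cells left of resting cells for each gene. Irf4, Irf8, Rel, Nfkb2, Crem, Myc and Stat5a are higher in stimulated cells, and Fos, Jun, Junb, Klf2, Klf4, Foxo1 and Lef1 are lower, with no overlap between the groups.

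NF-kappaB genes ran both ways. Rel, the c-Rel subunit, read 8.49, 8.60 and 8.55 in stimulated cells, against 4.79, 5.86 and 5.05 in resting cells. Nfkb2 rose 5.35-fold and Relb 2.72-fold, which pair in the noncanonical branch. Genes of the kinases upstream fell: the catalytic subunit Ikbkb 2.43-fold and the related kinase Ikbke 2.63-fold. Of all 25 members, 10 rose and 9 fell, close to the shares over all genes. The promoter windows of Rel and Nfkb2, shown because both genes rose and carry the letters of a kappaB element, come from the same table, with matches on either strand to GGG, any 2 bases, then TTTCC in capitals.
Rel (chr11:23770920-23771219, minus strand): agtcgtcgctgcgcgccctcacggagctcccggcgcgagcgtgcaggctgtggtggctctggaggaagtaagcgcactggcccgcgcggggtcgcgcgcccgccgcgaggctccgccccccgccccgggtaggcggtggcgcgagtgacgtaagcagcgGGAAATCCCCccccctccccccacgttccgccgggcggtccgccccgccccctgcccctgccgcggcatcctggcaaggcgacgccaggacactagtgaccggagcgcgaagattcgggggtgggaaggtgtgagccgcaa
Nfkb2 (chr19:46304487-46304786, plus strand): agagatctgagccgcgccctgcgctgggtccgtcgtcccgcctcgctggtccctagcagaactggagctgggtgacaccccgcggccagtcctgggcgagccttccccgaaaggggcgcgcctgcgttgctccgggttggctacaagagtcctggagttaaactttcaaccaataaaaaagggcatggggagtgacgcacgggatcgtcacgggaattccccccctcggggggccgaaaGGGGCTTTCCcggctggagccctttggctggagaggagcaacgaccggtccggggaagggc
Such matches stood in 9 of 32 (28.1%) windows of the NF-kappaB list, against 1.63% of all 32851 windows. Over the array at large the share was 1.55% in genes that rose and 1.46% in genes that fell. Of the 6873 tested genes, 5666 had a window, and some had several.

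Interferon regulatory and STAT factors rose in 5 of 13 and fell in 5, near the shares over all genes. Irf4, which scales with the strength of the receptor signal, read 12.99, 13.05 and 13 in stimulated cells, against 7.80, 7.64 and 6.33 in resting cells. Irf8, better known from myeloid and B cells, read 12.03, 12.09 and 12.26 in stimulated cells, against 8.22, 8.52 and 7.79 in resting cells. Irf7, the amplifier of type I interferon, fell 4.09-fold. In the list of SOCS, Pim and JAK genes 7 of 18 rose and 5 fell. The feedback inhibitors Cish (7.92-fold), Socs1 (7.44-fold) and Socs2 (2.47-fold) and the kinases Pim1 (2.19-fold) and Pim2 (6.75-fold) rose, all known targets of cytokine signals. The receptor-associated kinase Jak1 fell 2.53-fold. Lineage factors rose in 10 of 28 and fell in 14. Tbx21 (T-bet, 4.49-fold), Eomes (5.36-fold), Gfi1 (6.88-fold) and Nfil3 (12.1-fold) rose. Rora (8.02-fold), the CD4 lineage factor Zbtb7b (6.79-fold), Tox (3.35-fold) and Foxp3 (2.24-fold) fell, and Gata3 did not pass, at -0.08.

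Genes that hold a T cell at rest were mostly lower. Quiescence and naive regulators rose in 3 of 29 and fell in 23, 19 of them at least 2-fold, with a median of -1.86 against -0.01 over all genes. Klf2, which maintains S1pr1 and naive trafficking, read 10.89, 11.21 and 11.15 in stimulated cells, against 13.02, 12.88 and 13.07 in resting cells. Foxo1, which sustains Klf2 and Il7r, fell 3.68-fold. The cyclin-dependent kinase inhibitor Cdkn1b (p27) read 9.05, 9.03 and 9.05 in stimulated cells, against 11.32, 11.52 and 11.43 in resting cells, but its other probe set differed by 0.10. Tsc22d3 (GILZ), a glucocorticoid target, fell 19.7-fold, with 1 of its other probe sets at 0.18. The 3 that rose were Ccr7, Bach2 (1.47-fold) and Slfn2 (1.45-fold). The 5 Gimap genes tested, GTPases of lymphocyte survival, all fell, between 2.02-fold for Gimap1 and 2.93-fold for Gimap7.

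Falls also outnumbered rises in several lists of signalling pathways and their regulators. Dtx1, a Notch-pathway ubiquitin ligase linked to T cell anergy, read 5.14, 4.99 and 5.21 in stimulated cells, against 12.70, 12.44 and 12.66 in resting cells. Of 16 E3 ligases and tolerance regulators, 2 rose and 10 fell, including the diacylglycerol kinases Dgka (4.05-fold) and Dgkz (1.98-fold), the ligase Cbl (2.06-fold) and Nedd4 (at least 3.77-fold, with 1 of its other probe sets at 0.27). Notch and Wnt pathway genes fell in 22 of 32, among them Axin2 (12.3-fold) and Lef1 (2.66-fold). The Groucho family genes Tle4 (3.38-fold) and Tle5 (4.23-fold) also fell, against a rise of the Notch effector Rbpj (4.67-fold). Arrestins and regulators of G protein signalling fell in 12 of 18, led by Arrb1 (14.0-fold) and Rgs14 (11.0-fold), while Rgs16 rose 4.84-fold. In the PI3K and mTOR list 5 of 22 rose and 11 fell, including the mTOR inhibitors Ddit4 (13.2-fold) and Sesn1 (6.38-fold) and the PI3K regulatory subunit Pik3r1 (5.98-fold). The kinase Akt2 rose 1.92-fold. MAP kinase phosphatases and Sprouty genes rose in 5 of 13 and fell in 6, near the shares over all genes. The inhibitor Spry1 rose 55.4-fold and the phosphatase Dusp16 6.79-fold, while Dusp1 fell 15.7-fold. Spry1 read 11.17, 10.57 and 10.37 in stimulated cells, against 4.04, 4.81 and 5.89 in resting cells, so its resting arrays differ from each other more than its stimulated arrays.

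Genes that build the cell were mostly higher, part by part. All 69 ribosome biogenesis factors tested rose, 55 of them at least 2-fold, against 15.7% of all genes, with a median of 1.62. Noc3l, a carrier of large subunit precursors, read 9.29, 9.25 and 9.19 in stimulated cells, against 5.69, 5.87 and 5.97 in resting cells. The nucleolar scaffold Nolc1 rose 5.51-fold, Npm1 (nucleophosmin) 2.16-fold and nucleolin Ncl 2.47-fold. The smallest rise was that of Emg1 (1.13-fold), which read 12.88, 12.89 and 12.79 in stimulated cells, against 12.60, 12.69 and 12.74 in resting cells. Its call was lost without stimulated array 1 or 2 or resting array 1, at limma adjusted p of 0.0660, 0.0704 and 0.0979. Of 43 protein components of the ribosome itself, 8 rose, 6 fell and 29 did not pass, with a median of -0.01. Rpl4 read 14.84, 14.92 and 14.80 in stimulated cells, against 14.76, 14.76 and 14.78 in resting cells, near the top of the scale. Of these genes, 32 averaged within 1 log2 unit of its highest value, where a rise may be understated, so the count is not set against that of the biogenesis factors. The one ribosomal protein gene above 2-fold was Rps25 (2.86-fold), and Rps27 fell 1.84-fold.

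The promoters of Nop2 and Pno1, both ribosome biogenesis factors, are shown because they are the 2 largest rises in the list whose RefSeq window holds the E-box CACGTG, the element that Myc with Max binds. The E-box is in capitals.
Nop2 (chr6:125131633-125131932, plus strand): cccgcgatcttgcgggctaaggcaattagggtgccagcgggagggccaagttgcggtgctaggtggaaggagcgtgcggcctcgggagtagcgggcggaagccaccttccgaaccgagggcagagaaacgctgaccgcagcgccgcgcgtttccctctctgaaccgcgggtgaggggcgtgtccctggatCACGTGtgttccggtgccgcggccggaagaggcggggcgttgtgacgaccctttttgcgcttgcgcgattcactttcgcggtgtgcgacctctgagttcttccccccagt
Pno1 (chr11:17211540-17211839, minus strand): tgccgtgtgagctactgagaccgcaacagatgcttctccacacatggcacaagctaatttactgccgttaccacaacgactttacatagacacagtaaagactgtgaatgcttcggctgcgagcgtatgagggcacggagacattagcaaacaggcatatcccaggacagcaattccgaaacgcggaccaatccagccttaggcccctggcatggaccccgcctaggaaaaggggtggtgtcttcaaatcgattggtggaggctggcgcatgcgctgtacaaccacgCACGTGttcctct
Nop2 read 10.49, 10.40 and 10.43 in stimulated cells, against 8.32, 8.13 and 8.34 in resting cells, and Pno1 rose 4.58-fold. The E-box stood in 17 of 64 (26.6%) windows of the list, against 7.15% of all windows. The share was 13.3% in windows of genes that rose, 9.50% in those of genes that fell and 9.23% in those that did not pass. A match is a run of letters and says nothing of binding in these cells.

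RNA production and processing rose beside it. Of 34 polymerase subunits and their factors, 23 rose and 2 fell. Polr1b, a core subunit of the polymerase that makes ribosomal RNA, read 8.11, 8.26 and 8.24 in stimulated cells, against 4.86, 4.93 and 5.06 in resting cells. Polr2a, the largest subunit of the mRNA polymerase, was one of the 2 that fell (1.39-fold). Genes for tRNA modification rose in 22 of 27 and fell in none. Adat2, which makes inosine in tRNA, rose 15.1-fold, and the methyltransferase pair Mettl1 and Wdr4 rose 5.33-fold and 7.29-fold. Splicing factors rose in 38 of 58 and fell in 13. Core particles such as Snrpa1 (3.71-fold) and Prpf31 (4.87-fold) rose, whereas the regulators Clk1 (4.18-fold), Clk4 (3.78-fold), kinases of SR proteins, and Celf2 (3.01-fold) fell. Nuclear pore proteins and karyopherins rose in 41 of 48. Nup43 rose 6.29-fold, the export receptor Xpo5 4.29-fold and the Ran exchange factor Rcc1 4.86-fold. The 4 members that fell were led by Nup210 (1.76-fold).

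Genes of translation were split. Initiation and elongation factors rose in 26 of 42 and fell in 6. The cap-binding protein Eif4e read 11.77, 11.76 and 11.76 in stimulated cells, against 10.41, 10.15 and 10.31 in resting cells. Pdcd4, which blocks the eIF4A helicase, fell 2.86-fold. Elongation factor Eef2 fell 1.15-fold, and Eef1a1 did not pass, at 0.06. Aminoacyl-tRNA synthetases, which load tRNAs with amino acids, rose in 23 of 27. Cars, for cysteine, read 6.99, 7.68 and 7.68 in stimulated cells, against 4.52, 4.32 and 4.45 in resting cells. The cytosolic enzymes Wars (4.05-fold), Aars (3.35-fold) and Iars (3.05-fold) rose, as did the mitochondrial Rars2 (2.0-fold) and Sars2 (1.99-fold). The mitochondrial Hars2 was the one that fell (1.24-fold), a call lost with the mean of its probe sets (adjusted p = 0.162), and the mitochondrial Tars2, Fars2 and Pars2 did not pass, at 0.16, -0.06 and 0.47.

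The windows of Aars and Iars are printed because they hold the composite element of the stress factor ATF4, searched as TGATGNAA on either strand and shown in capitals.
Aars (chr8:111033592-111033891, plus strand): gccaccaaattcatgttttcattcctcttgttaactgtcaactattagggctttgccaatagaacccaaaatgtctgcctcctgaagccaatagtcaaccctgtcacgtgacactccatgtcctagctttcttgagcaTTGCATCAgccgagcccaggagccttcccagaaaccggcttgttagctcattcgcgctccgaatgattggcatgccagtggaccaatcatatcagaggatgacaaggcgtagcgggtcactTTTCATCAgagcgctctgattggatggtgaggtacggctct
Iars (chr13:49681880-49682179, plus strand): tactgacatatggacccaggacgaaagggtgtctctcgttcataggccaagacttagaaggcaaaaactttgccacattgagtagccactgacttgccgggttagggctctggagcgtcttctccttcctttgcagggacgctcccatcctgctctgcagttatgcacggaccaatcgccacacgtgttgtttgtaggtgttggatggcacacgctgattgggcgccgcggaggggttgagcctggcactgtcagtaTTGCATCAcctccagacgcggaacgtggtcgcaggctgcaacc
This element stood in 5 of 19 (26.3%) synthetase windows and 5 of 25 (20.0%) windows of the ATF4 target list, against 3.97% of all windows and 2.01% of those of genes that rose. The ATF4 list as a whole did not move one way, with 13 of 27 higher and 6 lower. Those that rose include Psat1 (5.78-fold) in serine synthesis and the leucine transporter Slc7a5 (4.46-fold). Those that fell include Ddit3 (CHOP, 2.05-fold), Cebpb (2.60-fold) and Ddit4. Atf4 itself differed by -0.03, with an adjusted p of 0.746.

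Most proteasome and cytosolic chaperone genes rose too. Proteasome genes rose in 40 of 44, 26 at least 2-fold. Psmd1, of the regulatory cap, rose 3.13-fold, and the constitutive catalytic subunit Psmb5 read 12.04, 11.96 and 12.03 in stimulated cells, against 10.89, 10.86 and 10.90 in resting cells. The interferon-induced catalytic subunits did otherwise: Psmb10 was the one subunit that fell (2.43-fold), and Psmb8 and Psmb9 did not pass, at -0.12 and -0.14. Cytosolic chaperones rose in 27 of 36 and fell in 6. All 8 measured subunits of the TRiC chaperonin rose, between 1.70-fold for Cct4 and 2.45-fold for Cct8, and the HSP110 chaperones Hspa4l (7.84-fold) and Hsph1 (3.71-fold) rose. The heat-inducible Hspa1b fell 4.42-fold and its cochaperone Dnajb1 1.56-fold. In the endoplasmic reticulum 22 of 39 rose, 3 of them at least 2-fold, and 8 fell, 6 of them at least 2-fold. Pdia6 rose 2.55-fold, while the stress sensor Eif2ak3 (PERK, 3.11-fold) and Dnajb9 (3.90-fold) fell. The major chaperone Hspa5 (BiP) rose 1.30-fold.

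**Figure D4:**
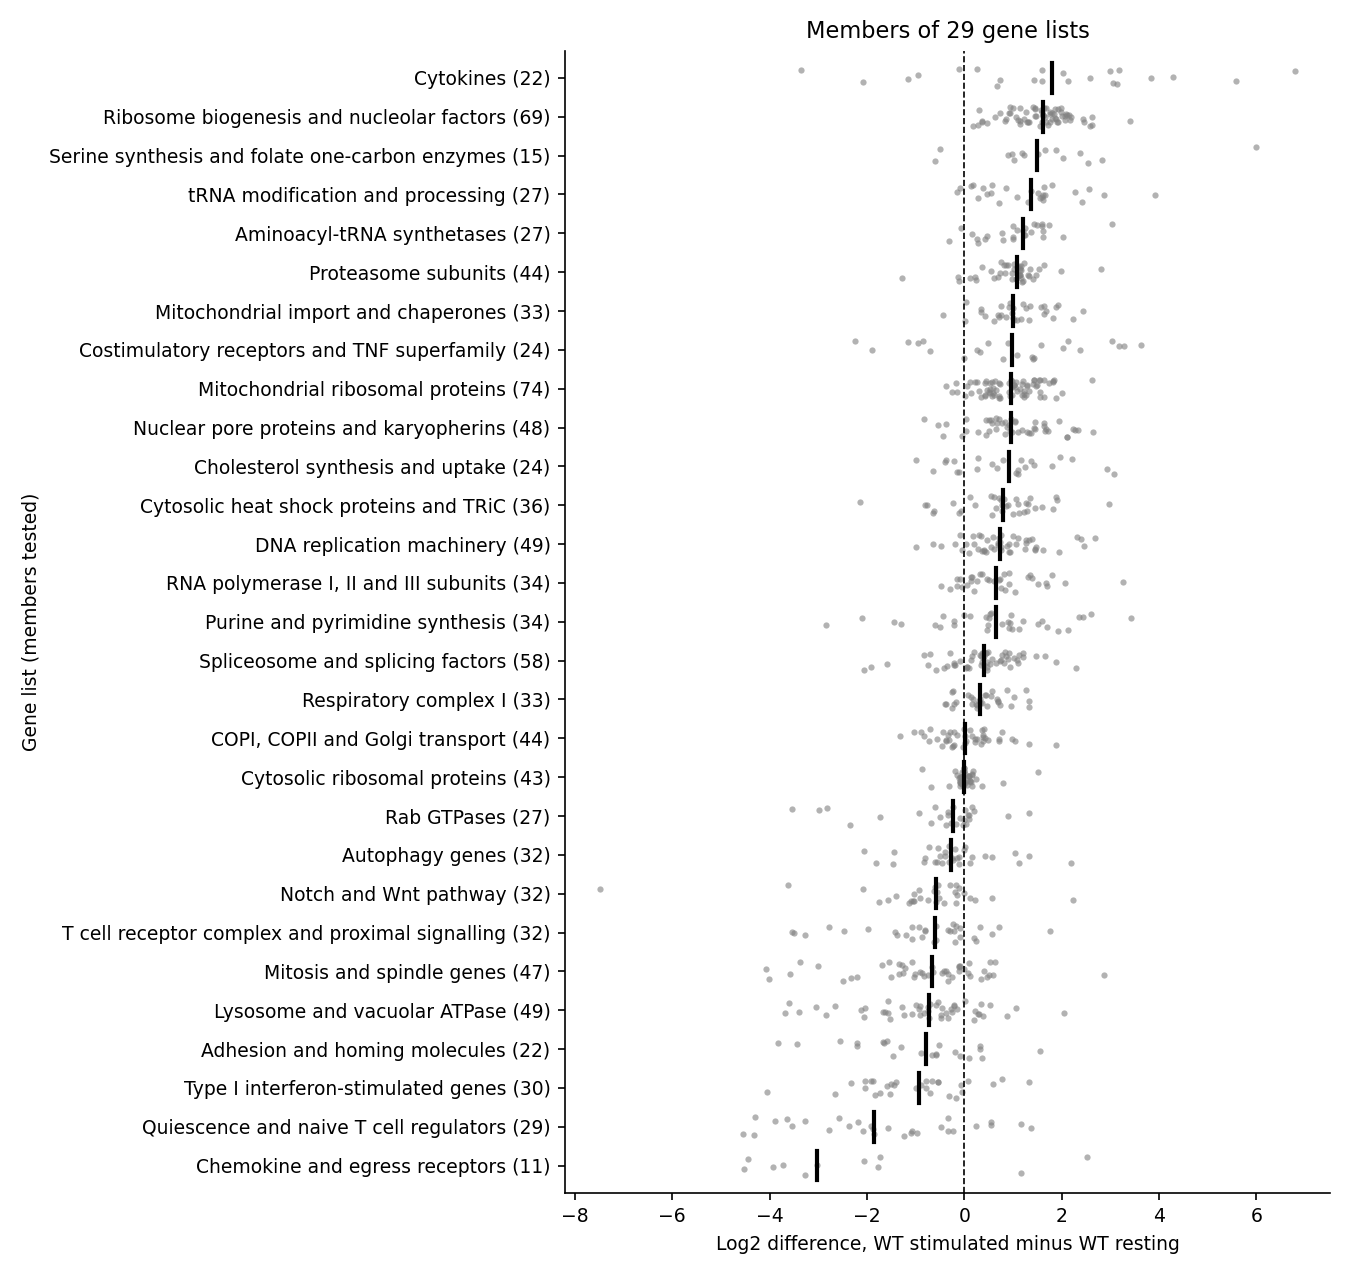
Log2 difference, stimulated minus resting (horizontal axis), of every tested member of 29 gene lists; grey points are members, black bars list medians, and the dashed line the median over all genes. Ribosome biogenesis lies wholly to the right with a median of 1.62, cytosolic ribosomal proteins sit at -0.01, and quiescence genes have a median of -1.86.

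In mitochondria, the rise differed by compartment. Genes for the mitochondrial ribosome were higher in 66 of 74 cases and lower in 2, with a median of 0.97, and those for import and its chaperones rose in 30 of 33, with a median of 1.01. Mrps6 rose 6.15-fold, the outer pore Tomm40 4.71-fold and the chaperonin Hspd1 3.67-fold. Tomm34, a cochaperone of import, was the one that fell (1.35-fold). Respiratory complexes rose less far: complex I in 23 of 33, with a median of 0.32, and complexes III and IV with ATP synthase in 26 of 39, with a median of 0.26. Cytochrome c, encoded by Cycs, read 12.96, 13.04 and 13.13 in stimulated cells, against 12.11, 12.20 and 12.22 in resting cells. Cox7a2l, which joins complexes III and IV, fell 4.36-fold. The tricarboxylic acid cycle rose in 11 of 28 and fell in 5. Fumarase Fh1 rose 2.27-fold and Idh3a 2.29-fold, Idh1 of the cytosol fell 4.53-fold, and citrate synthase Cs did not pass, at -0.03. Fatty acid oxidation rose in 4 of 21 and fell in 7. Cpt1a, the gate for long-chain fatty acids, read 5.33, 4.15 and 4.68 in stimulated cells, against 8.34, 8.47 and 9.05 in resting cells. Its inner-membrane partner Cpt2 did not pass, at 0.07. The thiolase Acaa2 fell 3.34-fold.

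Supply routes for carbon and nitrogen were mostly higher. In glycolysis and glucose transport 12 of 21 rose and 3 fell. Hexokinase Hk2 read 9.86, 9.75 and 9.88 in stimulated cells, against 4.23, 4.51 and 4.17 in resting cells. Hk1 did not pass, at -0.12. Triose phosphate isomerase Tpi1 rose 4.29-fold and the lactate carrier Slc16a1 3.66-fold. Serine and folate one-carbon enzymes rose in 13 of 15, 11 at least 2-fold. Cytosolic Shmt1 read 10.29, 10.30 and 10.28 in stimulated cells, against 4.72, 4.42 and 3.76 in resting cells. Its mitochondrial counterpart Shmt2 rose 5.19-fold, and the folate carrier Slc19a1 7.08-fold. The one member that fell was Mat2b (1.52-fold), a subunit in methyl donor synthesis. Nucleotide enzymes did not all move one way. Of 34 tested, 21 rose and 7 fell. De novo pyrimidine enzymes Cad (3.82-fold), Umps (5.14-fold) and Ctps (4.39-fold) rose, and of the purine route Ppat rose 3.01-fold and Adsl 3.25-fold. Deoxynucleoside kinases of salvage fell, Dck 2.73-fold, Tk2 4.31-fold and Tk1 at least 5.86-fold. Polyamine genes rose in 7 of 11, led by spermidine synthase Srm (6.62-fold) and ornithine decarboxylase Odc1 (4.10-fold), while Sat1, which degrades polyamines, fell 1.40-fold. Amino acid transporters and transaminases rose in 15 of 23, among them Got1 (6.98-fold).

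Membrane lipids divided by class. Cholesterol synthesis and uptake genes rose in 16 of 24 and fell in 4. Idi1 read 11.26, 11.26 and 11.28 in stimulated cells, against 8.18, 8.25 and 8.12 in resting cells. Cyp51 rose 7.63-fold, and the lysosomal cholesterol exporter Npc1 fell 1.99-fold. Sphingolipid genes went the other way, with 2 of 20 higher and 13 lower. Sptlc1, of the enzyme that starts the pathway, rose 2.24-fold, while the synthase Sgms1 fell 3.43-fold. The phosphodiesterase Smpdl3a, whose place in the list does not show a role in the pathway, fell 40.1-fold. Smpdl3a read 6.29, 6.16 and 6.26 in stimulated cells, against 11.58, 11.57 and 11.53 in resting cells. In fatty acid and phospholipid synthesis 10 of 28 rose and 9 fell. Fatty acid synthase Fasn rose 2.37-fold, while Lpin1, which makes diacylglycerol, fell 6.89-fold and Abcg1, a sterol exporter, 8.22-fold.

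Degradative compartments were lower. Lysosomal and vacuolar ATPase genes rose in 8 of 49 and fell in 37, with a median of -0.72. The cathepsins Ctsd (4.14-fold), Ctsh (6.35-fold) and Ctsw (12.1-fold) and the protease Lgmn (8.27-fold) fell. Ctsw, known from killer cells, read 6.97, 7.75 and 7.27 in stimulated cells, against 11.12, 10.87 and 10.80 in resting cells. Cathepsin Ctsz rose 2.09-fold, and the proton pump subunits Atp6v1a (1.31-fold) and Atp6v1h (1.44-fold) rose. The macrophage marker means given above, 2.49 to 2.65 in stimulated arrays and 6.93 to 7.80 in resting arrays, moved with these genes, and the part of those cells was not tested. Autophagy genes rose in 6 of 32 and fell in 17. Ulk2, an initiating kinase, fell 4.18-fold, and Bnip3, a mitophagy receptor, rose 4.57-fold. Of 27 redox genes 9 rose and 13 fell. Thioredoxin Txn1 rose 3.15-fold, and haem oxygenase Hmox1, also a macrophage marker, fell 14.4-fold. In iron and zinc handling 12 of 30 rose and 10 fell. The transferrin receptor Tfrc rose 3.29-fold, and the metallothioneins Mt1 and Mt2 fell at least 13.9-fold and at least 8.54-fold.

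Genes of the cytoskeleton and of membrane traffic moved unevenly. The intermediate filament gene Vim read 9.24, 9.23 and 9.30 in stimulated cells, against 12.67, 12.42 and 12.54 in resting cells. Dock2, an activator of Rac in migrating lymphocytes, fell 4.88-fold, its partner Rac2 3.04-fold, and filamin Flna 4.08-fold. Actb, Cfl1 and Pfn1, which encode actin and its binding proteins, did not pass, at 0.02, -0.08 and 0.03. Fscn1, which bundles actin and marks mature dendritic cells, rose 11.8-fold. The dendritic cell marker means given above were slightly higher in stimulated arrays, with an overlap between the groups. In that list Zbtb46, Batf3 and Bst2 rose, Itgax fell (-2.21), and Flt3 and Xcr1 lay under log2 4 on all 6 arrays. The part of those cells was not tested. Rab GTPases rose in 2 of 27 and fell in 13, with Rab8b 2.53-fold higher and Rab37 at least 8.23-fold lower. In COPI, COPII and Golgi transport, 17 of 44 genes rose and 15 fell. Ion channels and pumps fell in 11 of 17. Kcna3, the Kv1.3 channel of T cells, rose at least 1.98-fold, and the potassium chloride carrier Slc12a7 fell 11.4-fold. In NFAT and calcium signalling 7 of 18 rose and 9 fell. The store-operated channel Orai1 rose 3.67-fold, whereas its sensor Stim1 fell 3.26-fold and the calcium pump Atp2a3 9.57-fold.

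Most DNA replication genes rose, and few mitosis genes did. DNA replication genes rose in 33 of 49 and fell in 3, with a median of 0.73. Mcm2, of the replicative helicase, read 11.06, 11.09 and 10.93 in stimulated cells, against 9.55, 9.28 and 9.39 in resting cells. Mcm5 rose 3.84-fold, Gins1 4.96-fold and the clamp loader subunit Rfc3 5.26-fold. Mitosis genes rose in 4 of 47 and fell in 19, 16 at least 2-fold, and 24 did not pass. The share that fell, 40.4%, is near that over all genes. Mki67, a marker of cycling cells, read 6.66, 5.57 and 5.65 in stimulated cells, against 10.07, 8.88 and 9.08 in resting cells. Cyclin Ccna2 fell 4.62-fold and survivin Birc5 5.0-fold, while Cdk1 and Top2a, both of mitosis, at -0.92 and -1.03, did not pass. Erythroid marker means, 2.34 to 2.50 in stimulated arrays and 3.99 to 6.02 in resting arrays, moved with these genes, and the part of those cells was not tested. Of the G1 machinery 12 of 27 rose and 10 fell, also near the shares over all genes: Cdk4, the kinase of D-type cyclins, rose 2.30-fold and the E2F partner Tfdp1 2.93-fold, whereas the pocket proteins Rb1 (1.83-fold) and Rbl2 (4.23-fold), brakes on E2F, fell. Among p53 targets and kinase inhibitors 9 of 26 rose and 14 fell. Cdkn1a (p21) read 9.80, 8.69 and 9.38 in stimulated cells, against 2.80, 2.47 and 3.26 in resting cells. Phlda3 rose at least 10.9-fold, and Sesn1, Btg2 and Gadd45a (6.38-fold) fell, so known targets of p53 ran both ways.

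Survival and death genes rose in 9 of 31 (29.0%) and fell in 13 (41.9%), against 37.0% and 38.4% over all genes. Bcl2l1 (BCL-XL) read 9.33, 9.57 and 9.68 in stimulated cells, against 6.14, 6.11 and 6.22 in resting cells. Bcl2 did not pass, at -0.20. Caspases Casp9 (3.78-fold) and Casp8 (2.52-fold) fell, and the effector caspase Casp6 rose 1.81-fold. By the brightest probe set of each gene, the rise of Bcl2l1 was the one above 2-fold in the list. Other probe sets gave other sizes for some related genes. On the log2 scale, those of Bcl2l11 ran from 0.79 to 3.82, against 0.67 for the one used. Those of Cflar ran from -0.20 to 2.07, against -0.515 for the one used.

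Chromatin genes moved both ways. Of 53 modifiers, 23 rose and 19 fell, near the shares over all genes. Arginine methyltransferases rose: Prmt6 11.1-fold, Prmt7 3.42-fold, Prmt1 3.01-fold, Carm1 2.91-fold and Prmt5 2.63-fold. Prmt1 read 12.20, 12.34 and 12.41 in stimulated cells, against 10.73, 10.75 and 10.71 in resting cells. The histone acetyltransferase of new histones, Hat1, rose 4.94-fold. Lower members included the acetyltransferases Kat2b (3.97-fold) and Kat6a (2.34-fold), the methyltransferase Kmt2c (5.77-fold) and the deacetylase Sirt7 (3.47-fold). The maintenance methyltransferase Dnmt1 did not pass, at -0.09. Remodelling genes rose in 21 of 41 and fell in 14. Hells rose 2.84-fold, whereas the large scaffold Arid1a (2.61-fold) fell.

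Interferon genes parted by type. Type I interferon-stimulated genes rose in 3 of 30 and fell in 15, with a median of -0.94. Oas1a fell 3.78-fold and Rtp4 6.28-fold, and the antiviral gene Ifit2 3.69-fold. Bst2 (tetherin) rose 2.51-fold. Interferon gamma-inducible GTPases and antigen processing genes rose in 14 of 25 and fell in 3. Gbp2, a guanylate-binding protein, read 13.82, 13.81 and 13.87 in stimulated cells, against 10.57, 10.51 and 10.47 in resting cells. Iigp1 rose 4.66-fold and Irgm1 4.18-fold, whereas the antigen transporters Tap1 and Tap2 did not pass, at 0.16 and -0.16, and the class I gene H2-D1 fell 1.20-fold. Class II genes fell in 6 of 7, with H2-Aa 3.12-fold lower, and moved with the B cell and macrophage means.

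Effector genes ran both ways. Cytotoxic granule and killer receptor genes rose in 4 of 16 and fell in 8. Granzyme Gzmb read 12.32, 11.49 and 11.69 in stimulated cells, against 8.01, 8.01 and 7.60 in resting cells. Its inhibitor Serpinb9 rose 7.78-fold. Gzma and perforin, encoded by Prf1, did not pass, at -0.46 and -1.64, and the killer receptor Klrd1 fell 12.9-fold. Klrd1 is also an NK cell marker, and the NK cell means given above were lower in stimulated arrays; the part of those cells was not tested. Genes of regulatory T cells rose in 9 of 17 and fell in 4. Foxp3, their defining factor, read 6.66, 5.79 and 5.97 in stimulated cells, against 7.39, 7.35 and 7.17 in resting cells. Its Il2ra, Tnfrsf4 and Tnfrsf18 (2.63-fold) are known to rise in any activated T cell, and Nrp1 fell 6.62-fold. Clock genes rose in 5 of 15 and fell in 6. Npas2, a relative of Clock, read 5.48, 6.21 and 5.71 in stimulated cells, against 2.24, 2.24 and 2.24 in resting cells. It rose at least 3.49-fold, while the clock output gene Dbp fell 3.75-fold and Nr1d2 3.14-fold. Nuclear receptors and coregulators fell in 16 of 25, among them the glucocorticoid receptor Nr3c1 (2.95-fold, with 1 of its other probe sets at 0.11).

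Some related genes moved apart. Of 52 pairs listed by family or role, 43 had both members tested. Of these, 14 pairs had members past the test in opposite directions, 8 had both higher, 8 both lower, and 13 had at most 1 past the test. Over all genes 37.0% rose and 38.4% fell, so unrelated genes would also often pair in opposite directions. The 14 pairs are therefore not read as a feature of related genes. Of the glucose transporters, Slc2a1 read 10.22, 9.94 and 10.15 in stimulated cells, against 9.25, 9.66 and 9.37 in resting cells. Slc2a3 read 9.18, 8.81 and 8.79 in stimulated cells, against 11.31, 11.30 and 11.22 in resting cells. Stat5a rose 6.28-fold and Stat5b fell 1.33-fold, both factors downstream of the interleukin-2 receptor, but the other probe set of Stat5b went up, by 2.25 on the log2 scale. Stat5a read 10.96, 11.33 and 11.26 in stimulated cells, against 8.59, 8.47 and 8.55 in resting cells. D-type cyclin Ccnd2 rose 1.78-fold and Ccnd3 fell 2.74-fold. The Polycomb methyltransferase Ezh2 rose 3.12-fold and Ezh1 fell 2.75-fold, but the other probe set of Ezh1 differed by 0.23. In the pair of Bach2 and Bach1 the other probe set of Bach1, at 0.29, also ran against the one used, at -1.22, and the call of Bach1 was lost with the mean of its probe sets (-0.466 on the log2 scale). Over all called genes with further probe sets past the filter, 1586 of 1950 (81.3%) had every probe set in one direction. Of the ATPases of the BAF remodeller, Smarca4 rose 1.28-fold and Smarca2 fell 5.58-fold. The helicases Eif4a1 and Eif4a2, alike in protein sequence, moved by 0.88 and -0.87. CTP synthase Ctps rose and Ctps2 fell 1.52-fold, and of the pyruvate dehydrogenase kinases Pdk3 rose 2.89-fold and Pdk1 fell 6.01-fold. Stat3 rose 1.29-fold while Stat4 fell 1.49-fold, but the call of Stat3 was lost without stimulated array 1 or 2 or resting array 2, at adjusted p of 0.0590, 0.0561 and 0.0763, and with the mean of its probe sets, at 0.0647. Socs1 rose and Socs3 fell 1.86-fold, and the call of Socs3 was lost without stimulated array 1 or resting array 2 or 3, at adjusted p of 0.0716, 0.06 and 0.0557. These are differences of each gene, and levels of the 2 members of a pair are not compared.

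**Figure D5:**
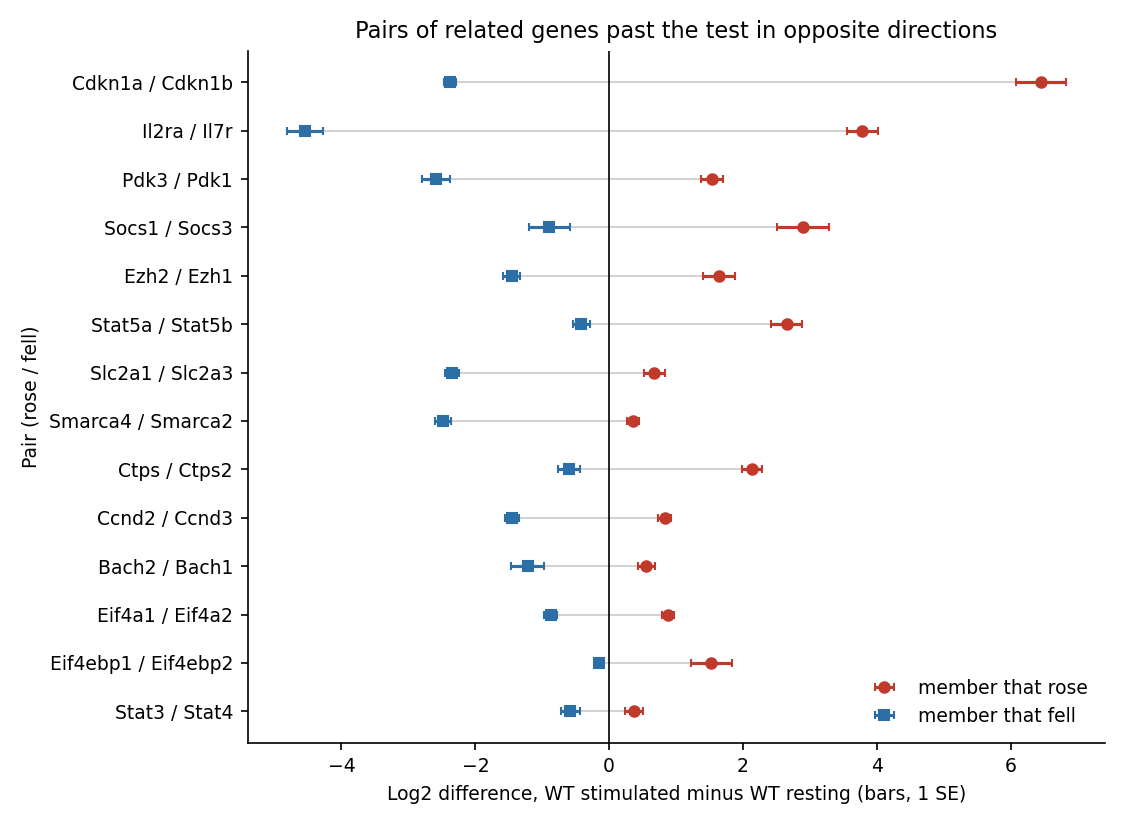
Log2 difference, stimulated minus resting (horizontal axis), of the members of 14 pairs of related genes that passed the test in opposite directions; circles are the member that rose, squares the member that fell, and bars 1 SE. The gaps run from Stat3 and Stat4, at 0.36 and -0.58, to Cdkn1a and Cdkn1b, at 6.45 and -2.38.

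The largest rises were sought among genes with all 6 arrays at or above log2 4 and no overlap between the groups. They were those of Spry1, Irf4, Hk2, Ccl3, the phospholipase Pla2g12a (25.5-fold), Crem, the unnamed transcript 2010204K13Rik (17.6-fold), the peptidase Thop1 (16.3-fold), Gzmb, Irf8, the sulfotransferase Chst2 (15.3-fold) and Adat2. The largest falls by the same rule were led by Dtx1 (179-fold) and included the filamin-binding gene Rflnb (82.1-fold), Fos (57.4-fold), Smpdl3a, Ccl5 and carbonic anhydrase Car2 (35.1-fold). Rflnb read 4.64, 4.21 and 4.70 in stimulated cells, against 10.76, 10.92 and 10.95 in resting cells. Antibody genes made up 5 of these 12 falls: Igha, of immunoglobulin A, read 9.98, 7.41 and 6.10 in stimulated cells, against 14.25, 13.89 and 13.90 in resting cells, and Jchain, which joins secreted antibodies, fell 33.6-fold. The B cell marker means moved with them, and the part of antibody-producing cells was not tested.

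Knockout cells, compared with their own resting cells on other arrays, gave a second measurement of the same stimulus. Of the 2336 wild-type genes past the test at 2-fold or more, 2247 (96.2%) passed in the same direction in knockout cells, and 62 of all 6873 genes (0.902%) passed the test of a difference between the responses. The median of ribosome biogenesis was 1.62 in wild-type and 1.51 in knockout cells, and that of quiescence genes was -1.86 in wild-type and -1.27 in knockout cells. Chemokine and egress receptors had a median of -3.02 in wild-type and -1.96 in knockout cells, and cytokines one of 1.81 in wild-type and 2.77 in knockout cells. Over all genes 37.7% were higher and 35.7% lower in stimulated knockout cells. DNA replication had a median of 0.73 with 33 genes higher in wild-type cells, against 0.01 with 11 higher in knockout cells. Mitosis had a median of -0.65 with 19 lower in wild-type cells, against -2.03 with 39 lower in knockout cells. The difference itself passed for 1 replication gene, Rfc4 (1.46 in wild-type cells and 0.06 in knockout cells), and for 0 mitosis genes. A p that misses the threshold does not show that the responses were alike. Resting preparations of both genotypes held erythroid transcripts. Ermap changed by -5.88 in wild-type and -8.58 in knockout cells, and Car1 by -8.10 in wild-type and -8.11 in knockout cells. The part of such cells in the replication and mitosis medians of either genotype was not tested.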

How the data were processed

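RNA was measured on Affymetrix Mouse Genome 430A 2.0 arrays, 1 per sample. The deposited values are log2 GCRMA signals, per the submitters' processing notes and the values' range; the settings and the version were not given in the sources used here. All 18 arrays held the same sorted values, so they had been quantile normalized, and a shift of most transcripts together would not show as one. Of 11 Bacillus control probe sets at or above log2 4 in both groups, 10 had a lower mean in stimulated than in resting arrays, and differences ran from -0.80 to 0.08; how these controls were used is not given in the sources used here. Of 22690 probe sets, 20380 named 1 gene, 691 several and 1555 none, and 64 were controls. Each of 12393 genes was read from its brightest probe set, and the 6873 genes at log2 4 or above on at least 3 arrays were tested.

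A model with 1 mean for each of 6 groups was fitted with limma 3.58.1 in R 4.3.3 and tested on simulated data. The p-values carry a Benjamini-Hochberg adjustment over 6873 genes, and the model did not pair samples by replicate number. The members and the 77 gene lists were chosen with earlier results of these data known, so list counts and medians carry no test. The named genes include, in each list, up to 5 of the largest changes in each direction past the test. These were taken among genes whose groups do not overlap, so their lack of overlap is no result. Members that went against the rest and members of a named step are named too. Others, such as Npm1, Ncl and Hspa5, were chosen for their known role after their values were seen. Slide and scan batches were not given in the sources used here. Alternatives changed the filter, scaling, probe set rule, arrays in the fit, variance prior, weights and block, and left out each array.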

Additional observations from a re-analysis of the deposited data

Results flagged for a closer look

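A difference between the wild-type and the knockout response passed limma's test of the difference for 6 genes named above, out of 62 among all 6873 genes. Npas2 changed by 3.56 on the log2 scale in wild-type cells and by 0.65 in knockout cells, a difference of 2.91 (adjusted p = 4.3e-06), with its wild-type resting arrays under log2 4. Rfc4, a clamp loader subunit, changed by 1.46 in wild-type cells and by 0.06 in knockout cells, a difference of 1.40 (adjusted p = 0.0428). In the other direction, Cxcr4 changed by -4.45 in wild-type cells and by -3.17 in knockout cells, a difference of -1.27 (adjusted p = 0.0264). Vim changed by -3.29 in wild-type cells and by -2.16 in knockout cells, a difference of -1.13 (adjusted p = 0.00524). Casp8 changed by -1.34 in wild-type cells and by -0.71 in knockout cells, a difference of -0.62 (adjusted p = 0.0373), and Dnajb1 by -0.65 in wild-type cells and -0.06 in knockout cells, a difference of -0.58 (adjusted p = 0.0392). Each genotype has 3 stimulated and 3 resting arrays, and groups of 3 are too small for a test of single outlying arrays.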

How the results depend on the processing

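The counts of changed, higher, lower and 2-fold genes stayed within 1.5 times their reported values under the alternatives run, with 2 exceptions. With no filter on dim probe sets, 12393 genes were tested and 4525 were higher, against 2542. Lower genes came to 2755, against 2638, and genes changed at least 2-fold to 2387, against 2336. The added calls were thus mostly rises of under 2-fold among genes that the filter had removed, and their cause was not tested. A test against a 2-fold change called 1462 genes, against 5180, as it asks for more. Genes measured on 1 side only moved with the level demanded: 59 were switched on at log2 5 and 20 at log2 7, against 31 at log2 6, and 118 were switched off at log2 5 and 26 at log2 7, against 69. Leaving out each array in turn gave 4916 to 4956 changed genes, 2410 to 2435 higher, 2500 to 2539 lower, 2302 to 2345 at 2-fold or more, 32 to 37 switched on, 71 to 78 switched off and 1469 to 1511 within 1.5-fold.

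Deviations of same-numbered samples from their group means correlated at 0.132, -0.011 and 0.023. Those of differently numbered samples ran from -0.126 to 0.146, so this check does not settle whether the samples are paired. A replicate block gave 5251 changed genes. Averaging each gene's probe sets turned Stat5b to 0.918, and citrate synthase Cs, which had not passed, read 0.333 and passed; the median of MAP kinase phosphatases and Sprouty genes became 0.026. Named genes were not followed under the test against a 2-fold change. Of 356 genes named, 337 kept their direction and call under all the remaining alternatives. Of the others, 5 lost a call under at least 1: Emg1, Socs3, Stat3, Hars2 and Bach1. A further 12, not past the test as reported, passed under at least 1, and 10 of these did so with array weights, whose estimation stopped before its tolerance was met. The cause was not tested.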
